A study of Homo sapiens with 5 samples.

Results

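Distal regulatory regions that lie inside protein-coding genes were examined in a human colorectal carcinoma cell line before and after a short interferon-beta (IFN-β) stimulus. The table of regulatory regions held 20087 H3K27ac peaks, and 3308 of them (16.5%) met the rule for a distal intragenic peak. The centre of such a peak lay on chromosomes 1 to 22 or X, more than 5 kb from every protein-coding transcription start site (TSS), inside the body of a protein-coding gene, and more than 1 kb from every lncRNA transcript start. All positions are in GRCh38, and genes and transcripts are those of GENCODE release 44.

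The cells were HCT116 CMV-osTIR1 RAD21-mAC, an epithelial HCT116 derivative that carries the plant auxin receptor osTIR1 under a CMV promoter and the cohesin subunit RAD21 fused to the mAC degron tag. Both groups carried these alleles and both received 0.1% DMSO for 6 h. The IFN-β group then received 1000 unit/ml IFN-β for 1 h and the mock (control) group received nothing further. There were 2 H3K27ac ChIP-seq libraries in each group and 1 input library. The engineered cells are a single modified line, and no unmodified HCT116 cells are among the groups.

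H3K27ac is acetylation of lysine 27 on histone H3, a mark of active promoters and active enhancers. Enhancers are short stretches bound by transcription factors, and many of them lie in introns, either of the gene they act on or of a neighbour. In epithelial cells, AP-1 (dimers of FOS and JUN proteins) and TEAD factors (the DNA-binding partners of YAP and TAZ) are known to bind many such elements. IFN-β acts through receptor-bound kinases such as JAK1 and TYK2, and the response is known to use interferon-sensitive response elements (ISREs).

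The deposited values are group means. Each peak has a log2 mean normalised read count for the mock libraries and another for the IFN-β libraries, called its H3K27ac signal here, and the difference is the IFN-β signal minus the mock signal on the log2 scale. No value per library was used, so the spread between replicates cannot be computed, no test was run between the groups, and every difference below is a description of these libraries. The lowest signals in the table were -0.17 in mock and -0.59 in IFN-β. If these stand for 1 read in each of the 2 libraries, the median distal intragenic peak rested on about 45.9 mock and 42.2 IFN-β reads, and the counting SD of its difference was 0.31. This error is approximate and covers counting only. The median difference over all 20087 peaks was -0.69, so peaks are also described relative to that median. ChIP of bulk cells cannot tell more cells with the mark from more mark per cell.

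The sequences of the peaks named by rank are shown first, because the motifs in them recur through the results. Each stretch is the plus strand of GRCh38 around the site of the named motif nearest to the peak centre, and capitals mark that motif on either strand. The shown site can lie far from the centre, by 420 bp in LAMA5 and 407 bp in SAE1. Peaks shown with a motif can hold others too, such as TEAD in SPATS2 and BCL2L1 and AP-1 in ACOT11. RBPJ, MCC and RUBCN host the 3 peaks with the highest differences among well-covered peaks that hold an ISRE core, which is GAAA, 2 free bases and GAAA. Well-covered means a mean log2 signal of 5 or more.
RBPJ: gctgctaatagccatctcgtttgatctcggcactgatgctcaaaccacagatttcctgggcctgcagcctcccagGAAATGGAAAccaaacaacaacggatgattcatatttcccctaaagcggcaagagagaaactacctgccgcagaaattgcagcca
MCC: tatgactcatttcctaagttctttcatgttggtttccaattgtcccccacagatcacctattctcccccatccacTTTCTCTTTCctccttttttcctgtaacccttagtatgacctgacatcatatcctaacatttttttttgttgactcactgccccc
RUBCN: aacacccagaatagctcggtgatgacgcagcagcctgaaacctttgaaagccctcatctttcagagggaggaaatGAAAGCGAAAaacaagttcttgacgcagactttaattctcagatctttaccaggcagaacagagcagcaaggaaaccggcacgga

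Peaks among those with the highest mock signal are shown with the AP-1 motif TGANTCA in ENSG00000285635 and with the TEAD motif GGAATG, or its reverse complement, in SYTL3 and VTI1A.
SYTL3: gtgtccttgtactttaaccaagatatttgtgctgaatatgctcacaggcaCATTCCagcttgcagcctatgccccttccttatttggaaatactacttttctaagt
VTI1A: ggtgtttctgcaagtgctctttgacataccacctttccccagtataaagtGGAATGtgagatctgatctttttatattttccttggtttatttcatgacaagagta
ENSG00000285635: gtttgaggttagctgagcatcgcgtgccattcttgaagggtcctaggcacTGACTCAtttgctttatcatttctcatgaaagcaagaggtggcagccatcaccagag

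Among well-covered peaks, those with the highest differences are shown with AP-1 in SPATS2 and BCL2L1 and with TEAD in LAMA5 and SAMD4A. The stretch from LAMA5 holds a pair of TEAD motifs on opposite strands.
SPATS2: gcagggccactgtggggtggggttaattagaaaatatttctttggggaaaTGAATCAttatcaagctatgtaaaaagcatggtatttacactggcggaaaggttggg
BCL2L1: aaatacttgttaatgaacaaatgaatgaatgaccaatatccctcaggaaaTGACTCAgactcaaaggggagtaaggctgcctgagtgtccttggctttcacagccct
LAMA5: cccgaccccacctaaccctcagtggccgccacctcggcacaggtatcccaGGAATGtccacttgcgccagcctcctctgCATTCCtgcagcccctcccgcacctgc
SAMD4A: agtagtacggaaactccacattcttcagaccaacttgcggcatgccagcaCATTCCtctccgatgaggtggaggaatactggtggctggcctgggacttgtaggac

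Peaks among those with the lowest differences are shown with AP-1 in SAE1 and USP46 and with the GC box GGGCGG, or its reverse complement, in OBSL1 and ACOT11. The windows of 500 bp on either side of the centres held 11 GC boxes in OBSL1 and 8 in ACOT11.
OBSL1: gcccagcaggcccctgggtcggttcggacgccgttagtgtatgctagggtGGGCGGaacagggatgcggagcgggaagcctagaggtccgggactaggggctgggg
SAE1: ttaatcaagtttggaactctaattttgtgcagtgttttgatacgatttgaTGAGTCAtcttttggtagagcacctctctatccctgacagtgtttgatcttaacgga
USP46: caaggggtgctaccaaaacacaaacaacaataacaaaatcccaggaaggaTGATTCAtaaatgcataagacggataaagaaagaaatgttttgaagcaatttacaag
ACOT11: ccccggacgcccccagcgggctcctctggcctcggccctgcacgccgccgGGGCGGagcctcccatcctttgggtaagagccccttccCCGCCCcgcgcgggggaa

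Distal intragenic peaks carried less H3K27ac than promoters and about as much as intergenic distal peaks. Their median signal was 4.35 in mock (quartiles 3.68 and 5.18), about 20.4 normalised reads, and 3.81 in IFN-β (quartiles 3.11 and 4.64), about 14.0 normalised reads. The 3381 intergenic distal peaks, which are as far from protein-coding and lncRNA starts but outside protein-coding genes, had medians of 4.28 and 3.71. The 10846 peaks within 1 kb of a protein-coding TSS had medians of 5.54 and 4.80. Mock signal of distal intragenic peaks ran from -0.17 to 8.29. Peaks wider than 1000 bp numbered 309 (9.34%) and had a median mock signal of 4.69.

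The median difference of distal intragenic peaks was -0.55 (quartiles -0.85 and -0.26), which is 0.14 above the median of all peaks. It was -0.55 in intergenic distal peaks as well and -0.76 in promoter peaks. A difference above 0 was seen in 376 distal intragenic peaks (11.4%), against 5.93% of all peaks and 2.52% of promoter peaks. More than 0.5 above the all-peak median stood 668 distal intragenic peaks (20.2%), where 10.8% of all peaks did, and more than 0.5 below it stood 295 (8.92%), where 7.53% of all peaks did. Distal peaks outside genes gave similar shares relative to that median, 17.7% above and 8.90% below. Counted against 0 instead, 90 distal intragenic peaks were more than 0.5 higher in IFN-β and 1806 more than 0.5 lower. The matching counts over all peaks were not made. The all-peak median of -0.69 is itself more than 0.5 below 0, so most peaks of the table were also lower by that much. The 1806 thus do not mark a loss particular to distal intragenic peaks.

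**Figure D1:**
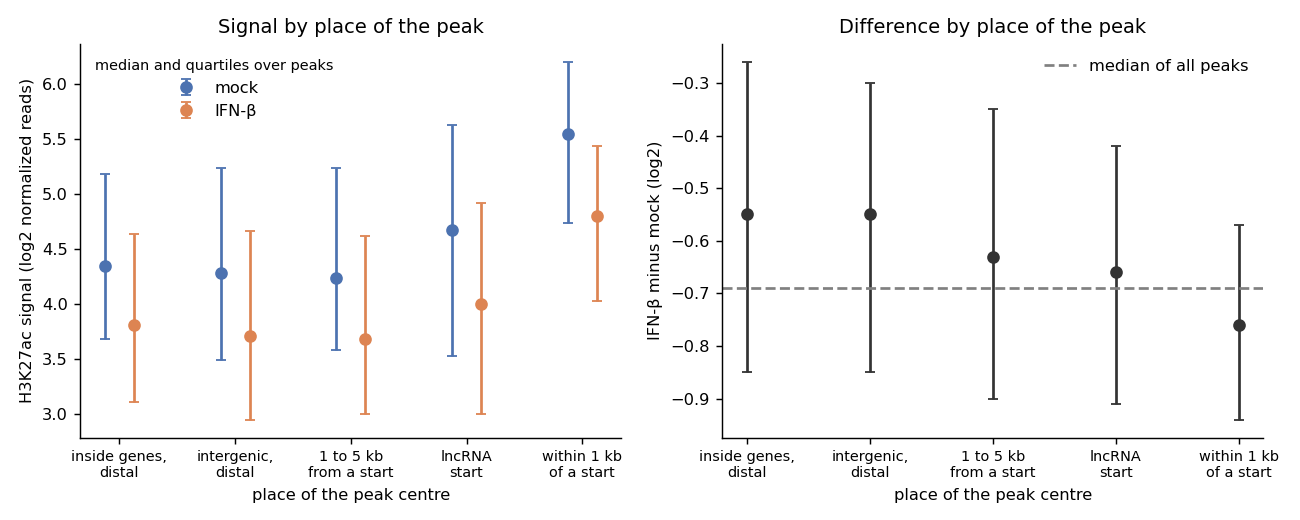
Mock and IFN-β signal (log2 mean normalised reads) and their difference (log2) by place of the peak centre; points are medians over peaks, bars run from the lower to the upper quartile, and the dashed line is the median difference of all peaks. Distal peaks inside genes have a median mock signal of 4.35 and a median difference of -0.55, and promoter peaks 5.54 and -0.76.

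At mean signals of 2 and over, the scatter of the difference was wider at lower read counts. Over all distal intragenic peaks the SD of the difference was 0.53, and it fell from 0.91 at mean signals of 2 to 3 to 0.26 at 6 and over, while the median counting SD fell from 0.50 to 0.14. The SD was above the counting SD in each of these signal ranges. Below a mean signal of 2 (n = 79), where 58 peaks sat at both lowest values, the SD was 0.66 and the median counting SD 1.44. The median difference moved little, from -0.56 at signals of 2 to 3 to -0.60 at 6 and over, where promoter peaks went from -0.63 to -0.82. Of the 772 well-covered distal intragenic peaks (23.3%), 79 (10.2%) stood more than 0.5 above the all-peak median and 18 (2.33%) more than 0.5 below it, against 3.37% and 2.82% of the 8676 well-covered peaks of all classes. Well-covered intergenic distal peaks were close to the intragenic ones, with 9.44% above and 1.31% below. Well-covered promoter peaks stood above in 1.45% and below in 3.08%.

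**Figure D2:**
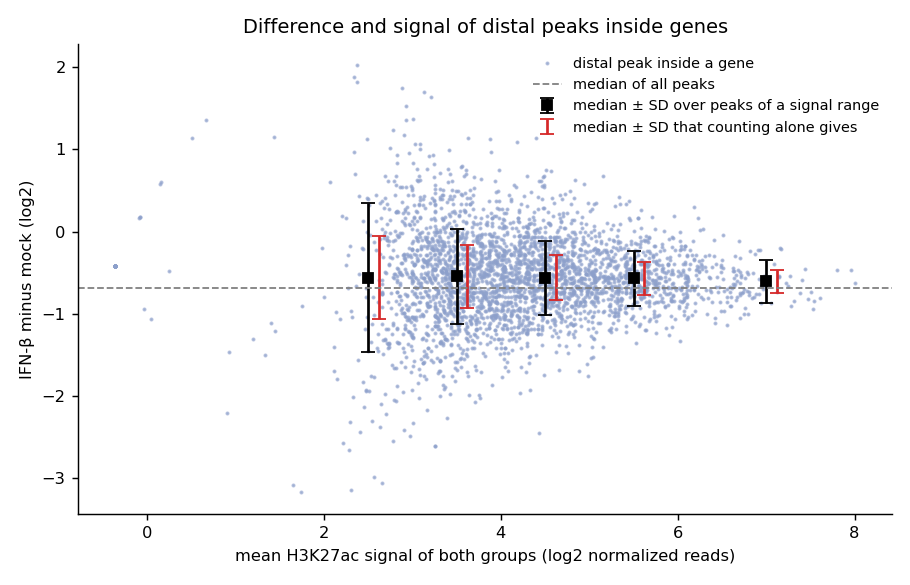
Difference (log2) of each distal peak inside a gene against its mean signal in both groups (log2), with the median and SD over peaks in black for signals of 2 to 3 up to 6 and over, and the median counting SD in red. The SD falls from 0.91 to 0.26 as signal rises and stays above the counting SD, and the dashed line is the median of all peaks.

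Base composition differed between the classes and moved with the difference. The median GC content was 44.4% in distal intragenic peaks, 46.6% in intergenic distal peaks and 64.4% in promoter peaks. When distal intragenic peaks were put into 3 equal parts by GC content, the median difference was -0.48, -0.53 and -0.66 from the lowest to the highest part. Promoter peaks within the same GC ranges gave -0.58 (n = 123), -0.57 (n = 313) and -0.76 (n = 10410). Promoter peaks were thus lower than distal intragenic peaks in each range, by less than in the pooled values. Whether GC content has a part in the difference was not tested.

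Most distal intragenic peaks were intronic, and first introns held more of them for their length than later introns. Counted on the canonical transcript, 887 (26.8%) lay in the first intron, 1885 (57%) in a later intron, 140 (4.23%) in an exon and 396 (12%) inside the gene body but outside the canonical transcript. The first intron took 32% of the 2772 intronic peaks (95% Wilson interval 30.3 to 33.8) where it made up 21.1% of the intron sequence that could hold such a peak. This is 464 peaks per 100 Mb in first introns and 264 per 100 Mb in later introns. Exons had 304 per 100 Mb. Neighbouring peaks share genes, so the interval is a counting interval only.

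The gap between first and later introns narrowed away from the start. At 5 to 20 kb from the nearest TSS, first introns held 602 peaks per 100 Mb and later introns 362. At 20 to 50 kb the densities were 479 and 310, at 50 to 100 kb 287 and 242, and beyond 100 kb 129 and 119. The highest intron number was 87 of 105, in RYR1, which encodes a calcium release channel.

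Signal and difference were near equal in first and later introns. The median mock signal was 4.38 in first and 4.33 in later introns, the IFN-β signal 3.84 and 3.80, and the difference -0.56 and -0.55. More than 0.5 above the all-peak median stood 21% of first-intron and 20.1% of later-intron peaks, and more than 0.5 below it 8.23% and 9.12%. By intron number the median difference was -0.58 in intron 2 (n = 521), -0.54 in intron 3 (n = 300), -0.54 in introns 4 to 6 (n = 461), -0.57 in introns 7 to 12 (n = 355) and -0.54 in intron 13 and later (n = 248). The 140 exonic peaks had a median difference of -0.63, with 10% standing above and 15.7% below, and their median GC content was 55.2%.

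**Figure D3:**
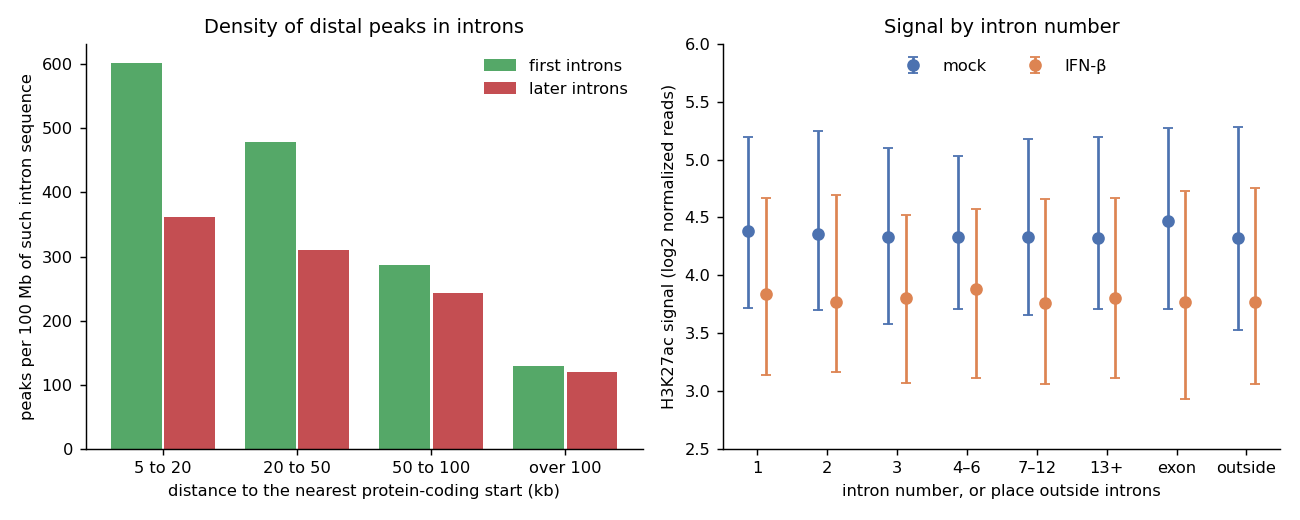
Left, distal intragenic peaks per 100 Mb of eligible intron sequence by distance to the nearest protein-coding TSS (kb), in first and later introns. Right, mock and IFN-β signal (log2) by intron number, and for exons and places outside the canonical transcript, as median and quartiles over peaks. First introns hold 602 and later introns 362 peaks per 100 Mb at 5 to 20 kb, while the medians of signal stay level along the introns.

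At the median, the centre lay 22.6 kb from the nearest protein-coding TSS (quartiles 11.4 and 47.5 kb). The farthest was 768.4 kb away, in FHIT, a very long gene at a fragile site. The median difference was -0.60 at 5 to 10 kb, -0.56 at 10 to 20 kb and -0.53 at each range from 20 to 200 kb, and -0.69 in the 89 peaks beyond 200 kb. Median GC content fell over the same ranges from 47.7% to 37.0%. The nearest TSS was that of the host gene for 2768 peaks and of another gene for 540 (16.3%), and the median differences were -0.55 and -0.58. More than 1 protein-coding gene body held 170 of the peaks, and 237 (7.16%) also lay within a lncRNA gene.

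The host genes were 1831 in number, 9.17% of the 19970 protein-coding genes. A single peak lay in 1212 hosts (66.2%), 2 to 4 peaks in 514, 5 to 9 in 82, and 10 or more in 23. The 105 hosts with 5 or more peaks held 829 of the 3308 (25.1%). Hosts were long genes, with a median length of 106 kb against 27.5 kb over all protein-coding genes. The share of genes that were hosts was 1.21% below 20 kb, 13.6% at 50 to 100 kb, 31.1% at 200 to 500 kb and 27.3% at 500 kb and over.

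PCDH7, a protocadherin of the cell surface, held 39 distal peaks, the most of any gene. They were spread over its 426 kb at chr4:30720369-31146805, with 15 in the first intron and the other 24 in the second. Mock signal ran from 2.78 to 7.83 with a median of 5.20, and the difference from -1.79 to -0.22 with a median of -0.77. No peak lay within 1 kb of a protein-coding TSS of PCDH7. The nearest peak of any class was 3.96 kb from such a start, with a mock signal of 6.99 and a difference of -0.57.

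NSMCE2, a SUMO ligase of the SMC5/6 complex, PALLD, an actin-associated scaffold protein, and DST, which links cytoskeletal filaments, held 18 distal peaks each. In NSMCE2 the median mock signal was 5.65 and the median difference -0.68. In PALLD the peaks were mostly in intron 2, the median mock signal was 5.05, and the difference ran from -1.21 to 0.24 with a median of -0.38. The strongest promoter peak of PALLD, at 5.49 in mock, had a difference of -1.19. Another, 89 bp from a start of PALLD, had 5.33 in mock and a difference of -0.66. In DST the median mock signal was 3.96 and the median difference -0.52. The strongest promoter peak of DST was at 7.31 in mock with a difference of -1.01. Another, 125 bp from a start of DST, was at 6.00 with -0.68.

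CAV2, which encodes caveolin 2 of the membrane pits called caveolae, held 16, all of them outside its canonical transcript. Their differences ran from -0.94 to 0.09 with a median of -0.29, and 6 of the 16 stood more than 0.5 above the all-peak median with none that far below. Over all distal intragenic peaks 20.2% stood that far above and 8.92% that far below, and over all peaks 10.8% and 7.53%. Of the 16 peaks in CAV2, 7 were well covered. The CAV2 promoter peak was at 6.98 in mock with a difference of -0.64. The gene ENSG00000285635 held 10 peaks in 64.4 kb.

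**Figure D4:**
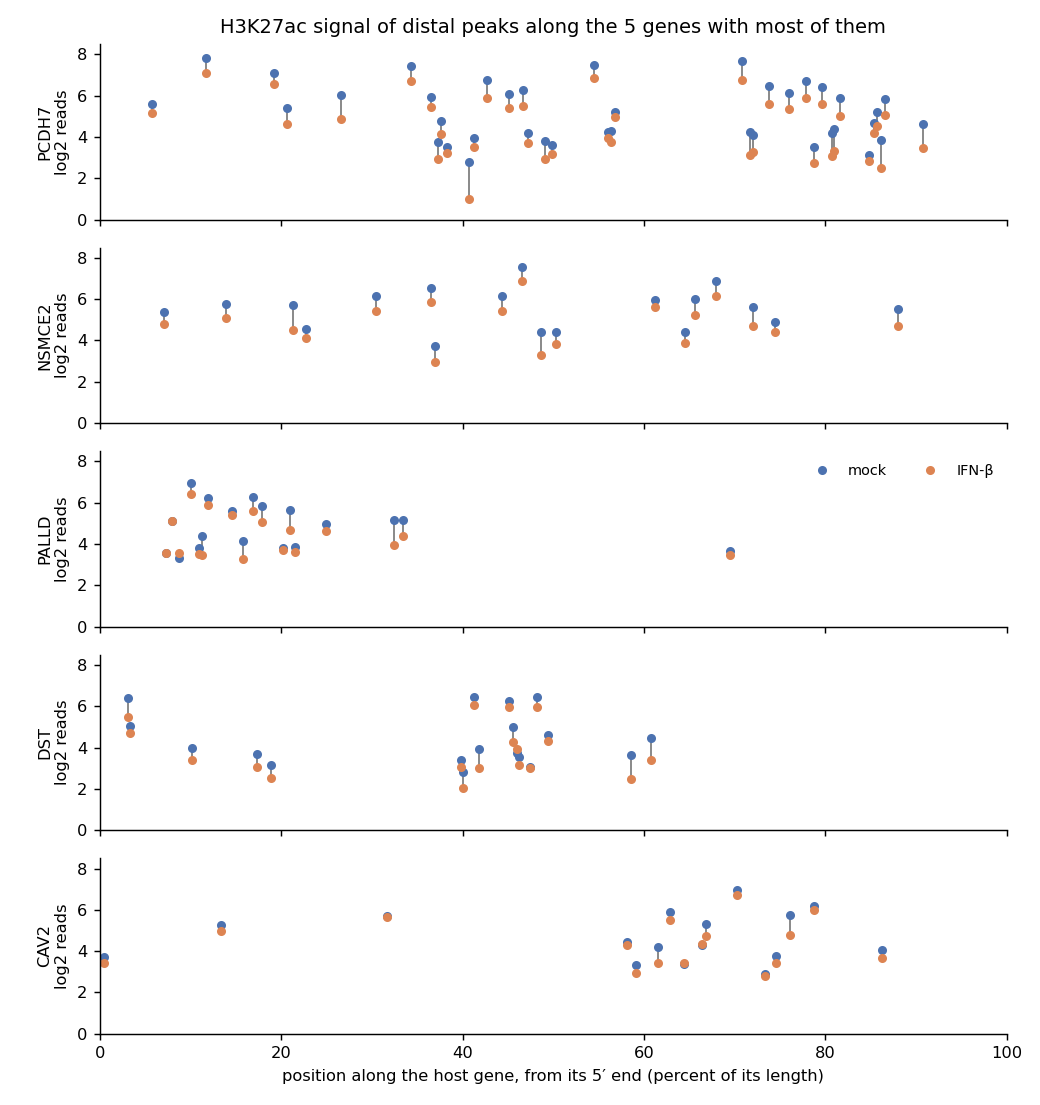
Mock and IFN-β signal (log2) of each distal peak by its position along the host gene (percent of gene length from the start), for the 5 genes with most of them: PCDH7, NSMCE2, PALLD, DST and CAV2. The 39 peaks of PCDH7 are spread along the gene with every IFN-β point below its mock point, and in PALLD, DST and CAV2 a few IFN-β points lie above.

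A group of 15 peaks in CCDC200 had the lowest value of the table in both groups, so their difference of -0.42 holds no information. In all, 58 distal intragenic peaks were at both lowest values and 70 at the lowest value of at least 1 group. The other hosts of such peaks included DHRSX with 8, in a region shared by X and Y, and the near-identical copies GTF2IRD2 and GTF2IRD2B with 3 each. Reads in duplicated sequence may map to several copies, and how the counting treated them is not given in the sources used here.

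Hosts more often had an active promoter than genes at large. A peak lay within 1 kb of a protein-coding TSS in 1379 of the 1831 hosts (75.3%), against 56.8% of all protein-coding genes. A peak at any start of the gene counted, and the genes were not matched for length or number of starts. The promoter peaks of hosts had a median mock signal of 5.73 and a median difference of -0.73, and those of the other genes 5.65 and -0.76. For the 2627 distal peaks whose host had a promoter peak, the mock signal was above that of the promoter in 499 (19%), and the difference was above the promoter's in 1664 (63.3%), with a median gap of 0.18. The 681 distal peaks whose host had none had a median mock signal of 4.19 and a median difference of -0.59.

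Peaks of the same gene were only loosely alike. Within hosts of 5 or more peaks the median SD of the difference was 0.37, and the SD over all distal intragenic peaks was 0.53. These are unlike measures, a median over hosts and a single pooled SD. The hosts include CCDC200 and DHRSX, whose peaks all sat at the lowest values of both groups. Across pairs of neighbouring peaks in a host with centres up to 10 kb apart, Pearson's r of the differences was 0.30 (n = 768), and it was 0.37 among well-covered pairs (n = 79). It was 0.05 for pairs over 50 kb apart in a host (n = 262) and 0.02 for neighbours in different hosts (n = 1809). All pairs share the same libraries, and these correlations across peaks are descriptions.

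Among the hosts with 5 or more peaks, which were picked out after their values were seen, median differences ran from -1.09 in ATXN1 (12 peaks) to 0.17 in MET and in MACF1. MET, the hepatocyte growth factor receptor, lies at chr7:116672196-116798377, on the same chromosome as CAV2 at chr7:116287380-116508541. MACF1, a linker of microtubules and actin, had 6 peaks with differences from -0.66 to 0.67, and 4 of them stood more than 0.5 above the all-peak median. Among all distal intragenic peaks 20.2% stood that far above, and among all peaks 10.8%. Of the 6, 3 were well covered, and the peak at 0.67 had a mock signal of only 2.44. GSE1, RUNX1, a Runt-family transcription factor, and RNF43 had medians of -0.99, -0.94 and -0.93. Well-covered peaks were 1 of 12 in ATXN1, 0 of 5 in GSE1, 1 of 8 in RUNX1, 3 of 6 in RNF43 and 4 of 7 in MET. Most of the low medians thus rest on weak peaks.

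The differences of 4 of the 5 peaks with the highest mock signal stood from 0.25 below to 0.22 above the all-peak median difference. In PDP1, a phosphatase that activates pyruvate dehydrogenase, signals were 8.18 in mock and 7.71 in IFN-β. SYTL3, a synaptotagmin-like protein, had 8.02 and 7.55 in intron 11 of 17, at chr6:158729677-158730677. In VTI1A, a SNARE of vesicle fusion, the peak in intron 3 of 7 at chr10:112490346-112491346 had 7.96 and 7.15, and the nearest TSS was that of ZDHHC6. ENSG00000285635 had 7.93 and 6.99 in intron 3 of 3 at chr3:98555526-98556526, where the nearest TSS was that of GPR15. Counting SDs of these differences ran from 0.08 to 0.10.

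The highest differences among well-covered peaks were in genes of several kinds. The peak in intron 9 of 13 of SPATS2, at chr12:49506483-49508222, went from 4.78 in mock to 5.46 in IFN-β, a difference of 0.68 with a counting SD of 0.22. In BCL2L1, which encodes the anti-apoptotic BCL-XL, the peak in intron 2 of 2 at chr20:31696132-31697132 went from 5.11 to 5.53, a difference of 0.42. LAMA5, the laminin alpha 5 chain, had 5.26 and 5.63 in intron 2 of 79 at chr20:62361058-62362058. SAMD4A, an RNA-binding repressor of translation, had 4.90 and 5.25 in intron 2 of 12 at chr14:54651938-54652938, 84.8 kb from the nearest TSS. RBPJ, the DNA-binding factor of Notch signalling, had 5.24 and 5.58 at chr4:26196705-26198392, outside the canonical transcript.

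The promoters of these hosts did not all share the direction. Promoter differences were -0.80 in SPATS2, -0.43 in BCL2L1, -0.67 in LAMA5 and -0.93 in RBPJ, and 0.20 in SAMD4A, where the promoter signal was 5.17 in mock.

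The lowest differences among well-covered peaks came from peaks with mock signals between 5.57 and 6.06. In OBSL1, a cytoskeletal adaptor, the peak in intron 18 of 20 at chr2:219551738-219552738 had 5.60 in mock and 4.06 in IFN-β, a difference of -1.54 with a counting SD of 0.25. SAE1, a subunit of the SUMO-activating enzyme, had 5.61 and 4.09 in intron 6 of 8 at chr19:47189324-47190324, and the nearest TSS was that of BBC3. USP46, a deubiquitinase, had 5.57 and 4.17 in the first intron at chr4:52640860-52641860. ACOT11, an acyl-CoA thioesterase, had 6.06 and 4.70 at chr1:54541903-54542903, outside the canonical transcript. OBSL1 and ACOT11 were GC-rich, at 68.8% and 69.3%, while SAE1 and USP46 were at 43.6% and 40.9%.

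Motifs were counted in windows of 500 bp on either side of each centre, on both strands, as exact letters, and motifs could share bases. A match says only that the letters are there. AP-1 was in 66.1% of distal intragenic peaks (95% Wilson interval 64.5 to 67.7), 58.3% of intergenic distal peaks, 13.5% of promoter peaks and 33.4% of all peaks. At least 2 AP-1 sites were in 849 distal intragenic peaks (25.7%), 23.7% of intergenic distal peaks and 1.84% of promoter peaks. The most in a distal intragenic peak, 15, were in WNT9A, a Wnt ligand. Within ranges of equal GC content AP-1 was in 68.1%, 72.6% and 57.7% of distal intragenic peaks from the lowest to the highest range, and in 48.8%, 29.7% and 12.6% of promoter peaks.

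TEAD was in 47.1% of distal intragenic peaks, 46.3% of intergenic distal peaks, 32.6% of promoter peaks and 38.7% of all peaks. The GATA motif AGATAA was in 45.3%, 42.5%, 16.9% and 27.5% of the same sets, and the homeobox motif TAATTA in 27.4%, 25.6%, 7.33% and 14.9%. Within the lowest range of GC content, distal intragenic and promoter peaks were close for these 3 motifs, at 46.2% and 45.5% for TEAD, 63.5% and 60.2% for GATA, and 46.1% and 43.1% for homeobox. In the middle range the shares were 49% and 44.4% for TEAD, 46.8% and 49.5% for GATA, and 25.2% and 28.4% for homeobox. In the highest range they were 46.1% and 32.1%, 25.6% and 15.5%, and 10.6% and 6.27%. The RUNX motif TGTGGTT was in 18.7% of distal intragenic peaks against 11.8% of all peaks, the TCF motif ATCAAAG of the Wnt pathway in 15.7% against 8.66%, and the FOX motif TGTTTAC in 15.3% against 9.69%. The HNF4 motif CAAAGTCCA was in 1.72% against 1.05%. Intergenic distal peaks were nearer, with RUNX in 17.1%, TCF in 13.4%, FOX in 14% and HNF4 in 1.24%. The motifs of promoters were less frequent. The GC box was in 27.1% against 67.4% of all peaks, and the E-box CACGTG in 11.5% against 17.9%. The ETS motif CCGGAAGT was in 1.33% against 6.98%, and the CRE TGACGTCA in 0.665% against 2.79%. In intergenic distal peaks the GC box was in 34.1%, the E-box in 13.6%, ETS in 2.13% and the CRE in 1.04%. GC content was not adjusted for in the shares from RUNX to the CRE. First and later introns had AP-1 in 68.5% and 67.5%, and TCF in 13% and 17.7%.

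The mock signal was higher in distal intragenic peaks with more AP-1 sites. The median mock signal was 4.20 without a site, 4.33 with 1 site and 4.59 with 2 or more. Intergenic distal peaks rose likewise, at 4.15, 4.295 and 4.48, whereas promoter peaks had 5.56, 5.44 and 5.22. The median difference was -0.55 with and without AP-1. With and without TEAD it was -0.51 and -0.59, and with and without the GC box -0.66 and -0.52, a motif that itself follows GC content.

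The difference moved little with the motifs of the interferon response. The ISRE core was in 508 distal intragenic peaks (15.4%), against 17% of intergenic distal, 8.62% of promoter and 11.6% of all peaks. Its share in distal intragenic peaks was 21.8%, 16.3% and 7.92% from the lowest to the highest GC range, and GC content was not adjusted for. The median difference was -0.49 with the core and -0.57 without it, and 23.2% and 19.6% stood more than 0.5 above the all-peak median. Among well-covered peaks the medians were -0.54 and -0.59. The GAS motif TTCCNGGAA was in 3.78%, and the median difference was -0.58 with it and -0.55 without it.

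The 3 well-covered ISRE-core peaks with the highest differences are the ones shown above. RBPJ had 0.34. MCC, a regulator of epithelial growth, had 5.13 in mock and 5.44 in IFN-β, a difference of 0.31, in intron 3 of 18 at chr5:113162824-113163824. RUBCN, a negative regulator of autophagy, had 5.46 and 5.72, a difference of 0.26, in intron 2 of 19 at chr3:197711631-197712631. Their counting SDs were 0.20, 0.21 and 0.18, and they stood 1.03, 1.00 and 0.95 above the all-peak median.

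**Figure D5:**
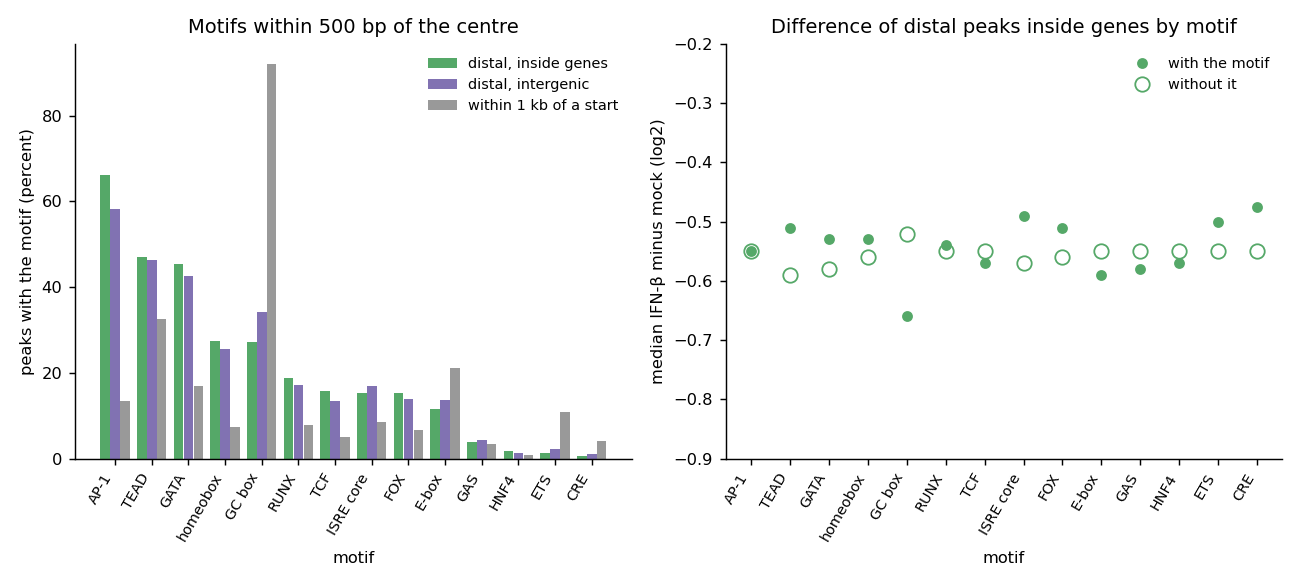
Left, percent of peaks with each of 14 motifs within 500 bp of the centre, for distal peaks inside genes, intergenic distal peaks and promoter peaks. Right, median difference (log2) of distal peaks inside genes with and without the motif. AP-1 is in 66.1% of distal intragenic and 13.5% of promoter peaks, and its medians with and without coincide at -0.55.

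Of 88 interferon-stimulated and interferon pathway genes, 87 were found in the annotation and 2 (2.3%) held a distal peak, neither of them well covered. Hosts made up 9.17% of all protein-coding genes and 1.21% of those under 20 kb, and the list was not matched for length. In ISG15, the ubiquitin-like interferon-induced protein, the peak at chr1:1005816-1006816 had 4.91 in mock and 4.44 in IFN-β, a difference of -0.47, and lay outside the canonical transcript, 5.17 kb from the nearest TSS. In JAK1 the peak in intron 1 of 24 at chr1:64897462-64899195 had 3.92 and 3.46. Both were named after their values were seen. For comparison, 66 genes of the list had a promoter peak, with a median promoter difference of 0.25. The promoter peaks of ISG15 and JAK1 themselves had differences of -0.53 and -0.82.

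Host genes were counted in gene lists. Over all distal intragenic peaks the median difference is -0.55, with 20.2% more than 0.5 above the all-peak median and 8.92% more than 0.5 below, and the counts of each list are given beside these. Of 42 junction and adhesion genes, 22 were hosts with 37 peaks, a median of -0.50, 10 above and 2 below. CLDN4, a tight junction claudin, led that list with peaks at 6.69 and 5.61 in mock and differences of -0.55 and -0.78. Hosts are long genes and the other lists too were not matched for length.

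Of 36 TGF-β and BMP pathway genes, 8 were hosts with 21 peaks and a median difference of -0.28, with 7 above and 2 below. SMAD3, which carries the TGF-β signal to the nucleus, held 8 of the 21. All lay in intron 1 apart from 1 in intron 5, mock signals ran from 3.26 to 6.14, and differences ran from -0.28 to 0.16. The largest in mock, at chr15:67149957-67150957, had 6.14 and 5.93. TGFBR2, a TGF-β receptor, was named after its values were seen and held 6 peaks with a median of -0.62.

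Of 30 Hippo pathway genes, 13 were hosts with 34 peaks and a median of -0.47, with 8 above and 1 below. TEAD1, the DNA-binding partner of YAP, had 5 peaks, of which those in intron 2 at 7.02 and 6.99 in mock had differences of -0.83 and -0.91. Of 40 Wnt and beta-catenin pathway genes, 11 were hosts with 29 peaks and a median of -0.64, with 5 above and 3 below. RNF43, a ubiquitin ligase that removes Wnt receptors, had 6 peaks with differences from -1.82 to -0.67. The strongest of them, at 6.73 in mock, had -0.67.

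Of 51 receptor tyrosine kinase and RAS-ERK genes, 13 were hosts with 35 peaks and a median of -0.54, with 9 above and 3 below. MET held 7 of them. Differences in MET were 0.03 in intron 1, from -0.67 to 0.80 over the 5 peaks of intron 2, and -0.71 in intron 15. The intron 1 peak had 6.27 in mock and 6.30 in IFN-β, and the intron 15 peak 6.49 and 5.78, with counting SDs of 0.14 and 0.15. The MET promoter peak had a difference of -0.49.

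Of 53 epithelial and intestinal transcription factor genes, 16 were hosts with 36 peaks, a median of -0.56, 9 above and 3 below. CUX1, a homeodomain factor, held 9 of these, 8 of them in introns 1 to 8, with differences from -0.79 to -0.09. Of 37 nuclear receptor coactivator, histone acetylation and cohesin genes, 6 were hosts with 18 peaks and a median of -0.70, with 2 above and 1 below. HDAC4, a class IIa histone deacetylase, held 8, all in intron 2, with mock signals from 3.75 to 7.02 and differences from -1.19 to -0.45. Of 30 AP-1 and immediate early genes, 3 were hosts with 5 peaks and a median of -0.56, none of them more than 0.5 from the all-peak median. ATF1, a CREB-family factor, had 5.34 and 5.17 in mock with differences of -0.60 and -0.56.

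By chromosome, the density of distal intragenic peaks per 100 Mb of eligible sequence was lowest on X, at 114, and highest on 19 and 17, at 773 and 673, where it was 308 overall. Median differences ran from -0.69 on chromosome 19 to -0.34 on chromosome 21, the latter over 34 peaks in 16 hosts.

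The cell type was checked at promoters. All 6 epithelial marker genes (EPCAM, CDH1, KRT8, KRT18, KRT19 and CLDN4) had a promoter peak, with mock signals from 4.48 to 7.10, and so did 0 of 3 blood, 1 of 3 fibroblast (COL1A1, 5.24) and 0 of 2 endothelial markers. Read totals per library were not computed, since the values used here are group means.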

How the data were processed

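H3K27ac ChIP-seq was done on 2 IFN-β and 2 mock libraries, with 1 input library. The authors trimmed reads (fastp), aligned them to GRCh38 (Bowtie2) and ran MACS2 on every library with the input as control. The authors then merged and counted the peaks in DiffBind, with DESeq2 inside it for normalisation. The submitters' processing notes list bcl2fastq 2.17, fastp 0.19.3 and Bowtie2 2.25. Read length is given as 75 bp in the sample labels and as another value in the design text. The deposited values used here are log2 mean normalised reads per group. Group means hide the spread between libraries, and the input's effect on them cannot be seen. The deposited fold changes, p-values and FDRs of the authors' own comparison were not used.

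The difference, the classes and the hosts were computed with Python 3.11.15, pandas 2.3.3 and pysam 0.24.0 from GENCODE release 44. A protein-coding TSS was the start of a protein_coding transcript. The host was the gene whose canonical transcript held the centre, then the one with the nearest canonical start, and introns were numbered from its 5′ end. A host's promoter peak was the strongest within 1 kb of one of its starts. Sequence densities came from a grid of 5000 bp steps. The scripts were tested on simulated data.

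The peaks and lists were chosen with earlier results of these data known. Named were the 5 peaks highest in mock, the 5 genes with most peaks, the 5 highest and 5 lowest differences at a mean log2 signal of 5 or more, the 3 highest of these with the ISRE core, interferon-list peaks of that signal, and for each other list the host with the largest summed mock signal. Some named peaks, sequences and 1 gene list are not reported here.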

Additional observations from a re-analysis of the deposited data

How the results depend on the processing

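Of 93 alternative values, 39 stayed near the reported one and 54 moved. Changes of sign were not checked. With gene ends only as starts there were 4907 distal intragenic peaks and the median difference was -0.61, and at a mean log2 signal of 5 or more it was -0.58. With every transcript's start there were 2702 peaks, beyond 10 kb 2621, without the lncRNA condition 3438, and with the whole peak inside the gene 3278. Peaks more than 0.5 above the all-peak median numbered 668. They fell to 171 at a size of 1 on the log2 scale, 90 without centring and 79 at a signal of 5 or more. Those below went from 295 to 69, 1806 and 18. Without centring, most peaks of the whole table also counted as lower, since the all-peak median was -0.69. AP-1 was in 66.1% of windows, 42.3% within 250 bp, and 68.1%, 72.6% and 57.7% by range of GC content. The share of intronic peaks in first introns was 32%, 32.4% on the longest transcript, and 46.1% when the first intron of any transcript counted. Of 52 alternatives for the other motifs, 39 moved. The causes were not tested.

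No paired analysis was possible because the table holds group means, and leaving out a library was not run for the same reason. Depth limits the weak peaks, where the counting SD of the difference was 0.50 at signals of 2 to 3.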
